A study of Mus musculus with 12 samples.

Results

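The histone deacetylase genes of the zinc-dependent family were described in RNA from dissected CA1 tissue of the mouse hippocampus. The members were 10 genes taken by symbol, Hdac1, Hdac2, Hdac3, Hdac4, Hdac5, Hdac6, Hdac7, Hdac8, Hdac9 and Hdac11, out of 48709 gene IDs in the deposited count files. Their symbols were matched to Ensembl IDs through the GENCODE M21 annotation. No measured value was used as a filter, but earlier results of these data were known when the members were chosen. The remaining zinc-dependent member, Hdac10, was not among them and is given below beside the pathway genes.

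Histone deacetylases remove acetyl groups from lysines of histones and of other proteins, and deacetylated chromatin is in general less open to transcription. Class I enzymes (Hdac1, Hdac2, Hdac3, Hdac8) are mostly nuclear and, apart from Hdac8, act inside multi-subunit corepressor complexes. Class IIa enzymes (Hdac4, Hdac5, Hdac7, Hdac9) have little catalytic activity of their own, bind MEF2 transcription factors, and leave the nucleus bound to 14-3-3 proteins after phosphorylation by calcium-dependent and related kinases. Hdac6 (class IIb) deacetylates tubulin in the cytoplasm, and Hdac11 is the single class IV member. In the hippocampus Hdac2 and Hdac3 are known as negative regulators of memory formation.

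The MI group was 6 libraries from mice given a myocardial infarction by ligation of a coronary artery. The Sham group was 6 libraries from mice that had the operation without the ligation. The sources used here give no strain, age, sex or time between surgery and dissection. They also do not tie each library to its own animal, and the spread that p-values rest on, that between the libraries, may be technical in part. CA1 holds the pyramidal neurons that carry much of the output of the hippocampus, and the series title joins heart failure, memory impairment and epigenetic control of gene expression.

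The smallest library, Sham 1, held 20764133 counts and the largest, Sham 5, held 35643127. All 11 of the CA1 pyramidal markers were detected, with a summed level of 1525 to 1886 counts scaled to library size (CPM) in MI and 1042 to 2250 CPM in Sham. Markers of dentate granule cells, the neighbouring field, were also detected, 10 of 10, at 238 to 547 CPM in MI and 300 to 1215 CPM in Sham. Xist, the RNA that coats the silenced X chromosome, had fewer counts than the Y-linked genes in 3 MI libraries (MI 1, MI 3, MI 4) and 3 Sham libraries (Sham 1, Sham 2, Sham 3). In the remaining 6 libraries it had more. These sets were read from the counts and are not groups of the study. In bulk tissue a smaller number of cells of a type and less RNA per cell cannot be told apart.

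All 10 members were detected in all 12 libraries and all 10 passed the filter on low counts, which kept 16829 genes. The lowest count of any member in any library was 205, for Hdac1, and the highest was 7132, for Hdac5. Hdac1 lies at chr4:129516104-129542713 on the minus strand, Hdac2 at chr10:36974544-37001889 on the plus strand, and Hdac3 on chromosome 18. Hdac8 lies at chrX:102284639-102505359 on the minus strand and Hdac6 at chrX:7930120-7947889 on the minus strand, so these genes are X-linked. Hdac4 lies at chr1:91928779-92195699, Hdac5 at chr11:102194432-102230166, Hdac7 at chr15:97792664-97844502 and Hdac9 at chr12:34047580-34917095, each on the minus strand. Hdac11 lies at chr6:91156665-91174692 on the plus strand. All positions are on mm10.

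Counting could blur some of these genes. Of the 50-base stretches of Hdac1 transcripts, as long as the reads, 35.49% also occur in other genes, chiefly Gm10093. That gene had 49 counts over all 12 libraries against 2960 for Hdac1, so the level of Hdac1 is uncertain where reads of both were dropped. Exons of Gm26720 on the opposite strand cover 22.36% of the exon bases of Hdac4, and Gm26720 had 0 counts. Exons of Gm44002 on the opposite strand cover 15.43% of the exon bases of Hdac11, also with 0 counts. Hdac7 and Slc48a1 overlap by 29 exon bases. The sources used here do not say whether counting used strand.

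Levels were compared between genes per length, as TPM, computed from the counts and the union of each gene's exons and scaled to the same total in every library. Hdac11 had the highest level, 142 ± 12.9 TPM (SD, n = 12), and was above Hdac3, the next in order, in 12 of 12 libraries, although their ranges over the libraries overlapped. Hdac3, the catalytic subunit of the NCoR and SMRT corepressors, followed at 104 ± 8.62 TPM. Hdac5, a class IIa enzyme, stood at 102 ± 4.92 TPM. Hdac3 was above Hdac5 in 7 of 12 libraries, so their order is within their spread.

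Hdac2, which shares the NuRD, SIN3 and CoREST complexes with Hdac1, was measured at 75.4 ± 4.68 TPM and lay below Hdac5 in all 12 libraries with no overlap of ranges. Hdac6 followed at 50.7 ± 4.80 TPM and Hdac7 at 29.2 ± 5.48 TPM, again in the same order in 12 of 12 libraries. Hdac4 (17.1 ± 1.39 TPM) and Hdac9 (16.4 ± 1.69 TPM) did not differ beyond their spread, with Hdac4 higher in 7 of 12 libraries. Hdac1 stood at 11.6 ± 1.34 TPM and Hdac8, an X-linked class I enzyme that works outside those complexes, at 9.75 ± 0.978 TPM. Per union exon length Hdac1 was above Hdac8 in 12 of 12 libraries.

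The choice of length moved some neighbours in this order. With the length of the longest transcript in place of the exon union, Hdac3 was above Hdac5 in 0 of 12 libraries and Hdac1 above Hdac8 in 4 of 12. The places of Hdac11, Hdac2, Hdac6, Hdac7, Hdac4 and Hdac9 in the order of means were the same under both lengths.

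**Figure D1:**
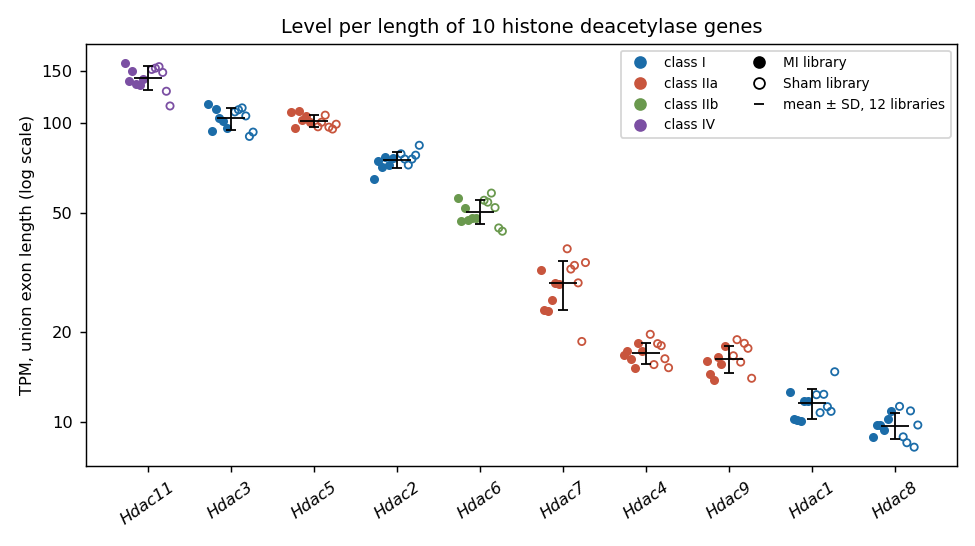
TPM per union exon length (log axis) for the 10 genes in order of mean; each point is a library, filled for MI and open for Sham, colours mark the class, and the black bar is the mean ± SD over 12 libraries. Hdac11 stands highest at a mean of 142 TPM, Hdac1 and Hdac8 lowest near 11.6 and 9.75 TPM, and MI and Sham points intermix for every gene.

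By class, the 4 class I genes held 36.0% ± 1.13 (SD, n = 12) of the summed TPM of the 10 members. The 4 class IIa genes held 29.5% ± 0.805. Hdac11 alone, class IV, held 25.5% ± 1.32, and Hdac6, class IIb, held 9.07% ± 0.417. Class I took 35.7% ± 0.836 in MI and 36.3% ± 1.38 in Sham (n = 6 each), so the groups differed by less than their spread. Class IIa took 29.6% ± 0.787 and 29.4% ± 0.884. With the longest transcript as length, class I and class IIa came to 33.0% and 33.7%, which turns their order, and class IIb to 7.36%.

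Each class was dominated by 1 or a few genes. Hdac2 stood at 6.56 ± 0.735 times Hdac1 (SD, n = 12), with a lowest ratio of 5.15 and a highest of 7.61. This ratio carries the uncertainty in the level of Hdac1 given above. Of its 50-base stretches 35.49% occur in other genes, against 0.0% for Hdac2, and reads dropped there would raise the ratio. Hdac3 was 10.8 ± 1.47 times Hdac8, and Hdac5 was 6.01 ± 0.570 times Hdac4. The ratio of Hdac11 to Hdac6 was the steadiest of the 4 ratios computed, 2.81 ± 0.0967, between 2.62 and 2.93 in every library. If counting ignored strand, reads dropped under Gm26720 (22.36% of the exon bases of Hdac4) would raise the ratio of Hdac5 to Hdac4. Those dropped under Gm44002 (15.43% of the exon bases of Hdac11) would lower the ratio of Hdac11 to Hdac6. With the longest transcript as length the means of these ratios were 5.34, 5.71, 5.001 and 3.53, listed in the same order, so the lead of Hdac3 over Hdac8 depends most on the length used.

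How far the libraries differed around the group means was read from edgeR's biological coefficient of variation, which had a median of 11.3% over all genes tested. Hdac5 varied least among the members, at 7.36%, and 11.6% of all genes tested varied less. Hdac2 followed at 7.70% and Hdac4 at 8.14%. Hdac3 (8.83%), Hdac6 (9.11%), Hdac11 (9.38%), Hdac9 (9.86%), Hdac8 (10.3%) and Hdac1 (11.2%) lay between. Hdac7 varied most, at 16.6%, the 74.2 percentile of all genes tested.

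Whether any deacetylase transcript differed after infarction was asked with a quasi-likelihood F test in edgeR, p-values being adjusted by Benjamini and Hochberg's method over all 16829 genes. None of the 10 members passed an adjusted p of 0.05, where 0% of all genes did. None had an unadjusted p under 0.05 either, against 7.55% of all genes, and DESeq2 and limma-voom called none of them. The groups overlapped for all 10 members, where 0.41% of all genes had groups that did not overlap. Of the 10 log2 fold changes 4 were above 0, against 47.6% of all genes, and their median was -0.02 beside -0.01 over all genes. No member moved by more than 0.2 on the log2 scale in either direction, against 17.6% of all genes.

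Among class I genes, Hdac2 ran from 70.1 CPM through a median of 79.9 to 84.4 CPM in MI, and from 77.1 through 81.9 to 92.6 CPM in Sham. MI 1 was the lowest library, apart from the other 5 of its group by Dixon's ratio on log2 CPM, as 10.2% of all genes have a library in either group. Sham 6 was the highest. The log2 fold change of Hdac2 was -0.08 (SE 0.05, adjusted p = 0.764 in edgeR, 95% interval -0.20 to 0.04). Hdac1 ran from 8.54 through 9.12 to 10.5 CPM in MI and from 8.89 through 9.64 to 12.5 CPM in Sham. Its highest library was again Sham 6, and the groups overlapped. The log2 fold change of Hdac1 was -0.11 (SE 0.09, adjusted p = 0.822, edgeR), and -0.036 without Sham 6.

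Hdac3 ran from 92.4 through 102 to 113 CPM in MI and from 91.6 through 102 to 109 CPM in Sham. Both groups covered the same range, and the log2 fold change of Hdac3 was 0.02 (SE 0.06, adjusted p = 0.972, edgeR), with a 95% interval from -0.12 to 0.16. That interval leaves room for a level between 0.92 and 1.11 times that of Sham. Hdac8 ran from 10.4 through 11.6 to 12.5 CPM in MI and from 9.83 through 11.0 to 12.7 CPM in Sham. Its log2 fold change was 0.05 (SE 0.08, adjusted p = 0.927, edgeR), with 5 of 6 MI libraries above the Sham median, and was 0.013 without Sham 3.

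Among class IIa genes, Hdac5 ran from 206 through 223 to 237 CPM in MI and from 199 through 211 to 222 CPM in Sham. Of the MI libraries 4 of 6 lay above the Sham median and the groups overlapped. The log2 fold change of Hdac5 was 0.08 (SE 0.05, adjusted p = 0.732, edgeR), and its 95% interval of -0.02 to 0.18 was the narrowest of the 10. Hdac4 ran from 58.9 through 64.4 to 70.3 CPM in MI and from 59.0 through 66.1 to 72.5 CPM in Sham. These ranges nearly coincide, and the log2 fold change of Hdac4 was -0.01 (SE 0.06, adjusted p = 0.974, edgeR).

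Hdac7 ran from 39.1 through 44.4 to 52.5 CPM in MI and from 31.5 through 53.2 to 59.8 CPM in Sham. All 6 MI libraries lay below the Sham median, yet Sham 5 was lower than every MI library. The log2 fold change of Hdac7 was -0.17 (SE 0.14, adjusted p = 0.811, edgeR), the largest in size among the members and the least precise, with a 95% interval of -0.46 to 0.12. Hdac9 ran from 49.9 through 55.9 to 62.6 CPM in MI and from 50.4 through 60.5 to 66.4 CPM in Sham. Of the MI libraries 1 of 6 was above the Sham median, and the log2 fold change of Hdac9 was -0.09 (SE 0.07, adjusted p = 0.807, edgeR).

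Hdac6, the tubulin deacetylase, ran from 66.3 through 67.8 to 78.6 CPM in MI and from 62.1 through 73.5 to 80.8 CPM in Sham. Its log2 fold change was -0.03 (SE 0.07, adjusted p = 0.943, edgeR). Hdac11 ran from 125 through 129 to 147 CPM in MI and from 108 through 135 to 142 CPM in Sham. Its log2 fold change was 0.03 (SE 0.07, adjusted p = 0.958, edgeR). For both genes Sham 6 was the lowest library, and 2 of 6 MI libraries lay above the Sham median.

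**Figure D2:**
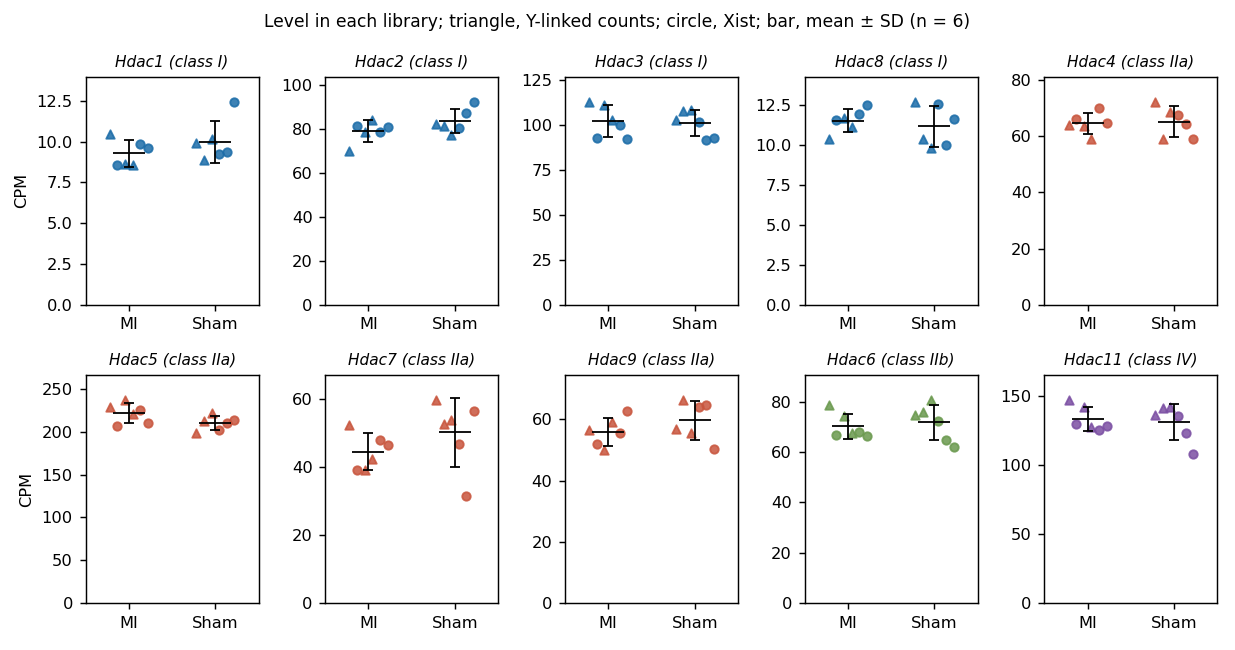
CPM (linear axes from 0) of each gene in each MI and Sham library, triangles for libraries with Y-linked counts and circles for libraries with Xist; bars are the mean ± SD of 6 libraries. The groups overlap in all 10 panels, and the widest scatter is in Hdac7, from 31.5 to 59.8 CPM.

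**Figure D3:**
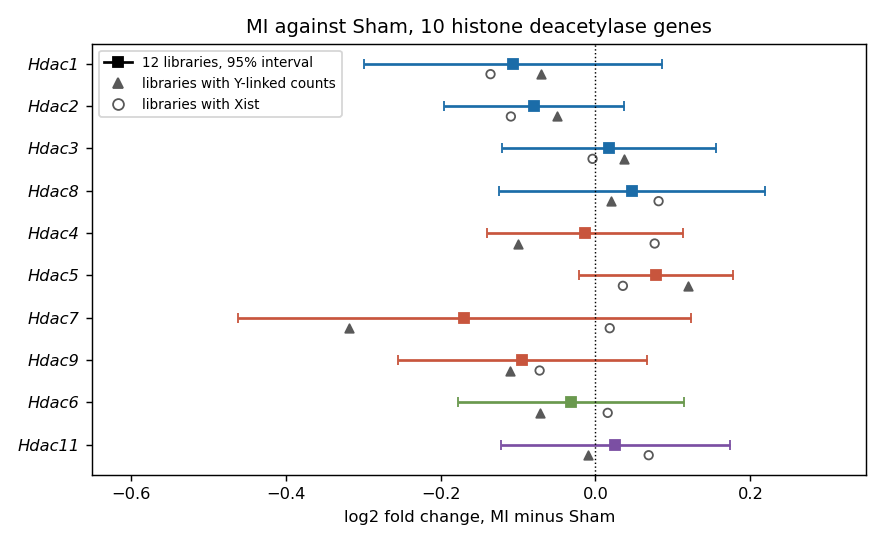
Log2 fold change of MI minus Sham from edgeR for each gene with its 95% interval over 12 libraries (squares). Below it is the difference of mean log2 CPM within the libraries with Y-linked counts (triangles) and within those with Xist (open circles). All 10 intervals include 0, and the values within the sets lie farthest apart for Hdac7, at -0.32 and 0.02.

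Within the sex-linked sets MI and Sham were compared as a difference of mean log2 CPM. For Hdac7 it was -0.32 where Y-linked counts prevailed and 0.02 where Xist did. Fitted by edgeR on each set alone, the log2 fold change of Hdac7 was -0.31 and -0.011. For Hdac4 the differences of means were -0.10 and 0.08, and the fitted values -0.11 and 0.076. The difference between the sets was tested as an interaction and was not called for Hdac7 (0.30, SE 0.26, adjusted p = 0.750, edgeR) or Hdac4 (0.18, SE 0.11, adjusted p = 0.668, edgeR). None of the 10 members had an unadjusted interaction p under 0.05, against 8.24% of all genes, and edgeR called 0.0119% of all genes at an adjusted p under 0.05.

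The authors' deposited tables of genes higher and lower in MI hold 0 of the 10 members, where 6.09% of the 16829 genes tested are listed. They hold 2.97% of all genes as lower and 3.13% as higher, and the sources used here do not say how the tables were made.

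The sex-linked sets were then compared with each other, with the surgery group in the model, since Hdac6 and Hdac8 are X-linked. At an adjusted p under 0.05 edgeR called 0.297% of all genes and none of the members. At an unadjusted p under 0.05 there were 3 members, Hdac3, Hdac6 and Hdac11, all lower in the libraries with Xist, against 18.6% of all genes in either direction and 8.88% lower in Xist. Among X-linked genes 23.4% passed the unadjusted threshold, and Hdac8 did not.

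Hdac3 ran from 91.6 through 93.0 to 102 CPM in the libraries with Xist and from 103 through 108 to 113 CPM in those with Y-linked counts. The sets did not overlap, which held for 2.06% of all genes. The log2 difference of Hdac3, Xist minus Y-linked, was -0.18 (SE 0.04, adjusted p = 0.0840, edgeR). Hdac3 was past the threshold by DESeq2 (adjusted p = 0.00595), which called 4.09% of all genes. It was also past it by limma-voom with sample weights (adjusted p = 0.0396), a fit added after the data were seen, which called 1.62%.

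Hdac6 ran from 62.1 through 66.5 to 72.2 CPM in the libraries with Xist and from 67.6 through 75.4 to 80.8 CPM in those with Y-linked counts. All 6 libraries with Xist lay below the median of the others, and the sets overlapped. The log2 difference of Hdac6 was -0.17 (SE 0.05, adjusted p = 0.118 in edgeR and 0.0359 in DESeq2). Hdac11 ran from 108 through 127 to 135 CPM and from 128 through 141 to 147 CPM, also with 6 of 6 below the median. Its log2 difference was -0.16 (SE 0.05, adjusted p = 0.176, edgeR). Hdac8, X-linked as is Hdac6, had a log2 difference of 0.09 (SE 0.08, adjusted p = 0.571, edgeR).

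Dentate granule markers had the largest median difference between these sets of the 14 marker lists. Of 10 dentate markers, 9 were higher in the libraries with Xist, with a median log2 difference of 1.21 and a summed level of 300 to 1215 CPM against 238 to 422 CPM. Myelin markers were higher with Xist in 16 of 16 (median 0.26), astrocyte markers in 11 of 11 (0.11) and microglial markers in 10 of 11 (0.15). Neocortical markers were higher in only 1 of 8 (-0.38) and meningeal markers in only 1 of 10 (-0.40).

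With the dentate score (the mean centred log2 CPM of its 10 markers) as a covariate, a model added after the data were seen, the log2 difference of Hdac3 was -0.12 (adjusted p = 0.614, edgeR). That of Hdac6 was -0.07 (adjusted p = 0.788) and that of Hdac11 was -0.03 (adjusted p = 0.928). With the pan-neuronal score, also added after the data were seen, they were -0.15 for Hdac3, -0.14 for Hdac6 and -0.09 for Hdac11, none past the threshold. With so few libraries the set and these scores cannot be fully told apart.

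Hdac3, Hdac6 and Hdac11 rose and fell together over the 12 libraries, and Hdac2 ran opposite to them. Of 45 pairs of members, 6 had a correlation of log2 CPM with a permutation p adjusted over the pairs under 0.05, and all 6 were among these 4 genes. The share among pairs of all genes tested is not given here, so the count cannot be read as particular to the family. All 4 genes also followed the dentate score, as given below. Hdac6 and Hdac11 were most alike, with Pearson's r = 0.913 (permutation p = 3e-05, adjusted p = 0.00135) and Spearman's rho = 0.881 (permutation p = 0.00037, adjusted p = 0.00945). Without the 2 libraries farthest from the median r was 0.954, and within the sets it was 0.868 (Y-linked) and 0.883 (Xist).

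Hdac3 and Hdac6 followed with r = 0.888 (permutation p = 0.00017, adjusted p = 0.00382) and rho = 0.874 (permutation p = 0.00042, adjusted p = 0.00945). Without 2 libraries r was 0.870, and within the sets 0.613 and 0.818. Hdac3 and Hdac11 had r = 0.814 (permutation p = 0.00059, adjusted p = 0.00885) and rho = 0.860 (permutation p = 0.00065, adjusted p = 0.00975), and 0.845 without 2 libraries. Within the sets that pair had 0.885 (Y-linked) and 0.472 (Xist).

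Hdac2 and Hdac11 had r = -0.835 (permutation p = 0.001, adjusted p = 0.0113) and rho = -0.699 (permutation p = 0.0142, adjusted p = 0.107). Hdac2 and Hdac6 had r = -0.763 (permutation p = 0.00196, adjusted p = 0.0176) and rho = -0.713 (permutation p = 0.0115, adjusted p = 0.107). Hdac2 and Hdac3 had r = -0.709 (permutation p = 0.00502, adjusted p = 0.0376) and rho = -0.622 (permutation p = 0.0342, adjusted p = 0.220). Without MI 1 and Sham 6 these values were -0.59, -0.62 and -0.55, so part of each opposite relation rests on those libraries. Within the sets all of them stayed negative, between -0.579 and -0.853.

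The stretches just before the starts of Hdac6, Hdac11 and Hdac2 are shown, none being available for Hdac3. Whether these stretches bear on the relations above was not tested. They are from RefSeq on GRCm38.p6, written 5′ to 3′ on the strand of the gene, with each GC box (GGGCGG on either strand) in capitals. Hdac6 is chrX:7947890-7948139 (minus strand) and Hdac2 is chr10:36974294-36974543 (plus strand), 250 bases each. Hdac11 is chr6:91156565-91156664 (plus strand), the 100 bases of its window that lie before the GENCODE gene.
Hdac6: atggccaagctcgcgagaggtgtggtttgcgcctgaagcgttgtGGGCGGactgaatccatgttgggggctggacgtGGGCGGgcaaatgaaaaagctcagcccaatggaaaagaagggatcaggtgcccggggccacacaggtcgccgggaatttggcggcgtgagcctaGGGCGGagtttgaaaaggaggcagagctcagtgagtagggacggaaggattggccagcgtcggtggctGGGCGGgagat
Hdac11: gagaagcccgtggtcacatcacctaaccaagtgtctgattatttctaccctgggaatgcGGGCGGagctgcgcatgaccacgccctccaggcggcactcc
Hdac2: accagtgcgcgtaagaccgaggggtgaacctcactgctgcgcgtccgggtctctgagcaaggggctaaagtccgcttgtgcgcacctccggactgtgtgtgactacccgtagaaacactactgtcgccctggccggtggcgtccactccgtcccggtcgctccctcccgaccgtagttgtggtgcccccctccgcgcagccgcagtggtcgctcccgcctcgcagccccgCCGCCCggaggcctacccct

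Hdac6 holds 4 GC boxes in its 250 bases, and Hdac11 and Hdac2 hold 1 each. The window of Hdac4, which had r = 0.298 with Hdac6, also holds 4. The table has 12 such windows for 8 of the 10 members, with several starts for Hdac7 and Hdac9. A GC box stood in 6 of the 12 windows, against 32.7% of 32851 windows of all genes of the same length. CCAAT, on either strand, stood in 5 of 12 (33.8% of all), TATAAA in 2 of 12 (12.4% of all) and TGACGTCA, the cyclic AMP response element, in 0 of 12 (1.5% of all). The content of C and G ranged from 43.6% at a start of Hdac9 to 74.0% at a start of Hdac7, with a median of 52.4% over all windows. A match describes letters in a window and says nothing of binding.

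Marker lists of 14 cell types and regions were set against the 10 members, 140 relations in all, of which 8 had an adjusted permutation p under 0.05 by Pearson's r. The share of all genes tested that relate this strongly to a score is not given here. The count therefore cannot be read as particular to the deacetylases. The dentate score accounted for 4 of the 8. Hdac11 fell as it rose, with r = -0.913 (permutation p = 8e-05, adjusted p = 0.0056) and rho = -0.881 (permutation p = 0.00031, adjusted p = 0.0217). Hdac6 had r = -0.880 (permutation p = 6e-05, adjusted p = 0.0056) and rho = -0.902 (permutation p = 0.00014, adjusted p = 0.0196). Without MI 1 and Sham 6 these were -0.766 and -0.830. Within the libraries with Y-linked counts they were -0.669 and -0.646, and within those with Xist -0.945 and -0.915.

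Hdac3 against the dentate score had r = -0.799 (permutation p = 0.0013, adjusted p = 0.0456) and rho = -0.853 (permutation p = 0.00083, adjusted p = 0.0290). Without MI 1 and Sham 6 r was -0.748, and within the sets it was -0.546 and -0.606. Hdac2 had r = 0.817 (permutation p = 0.00261, adjusted p = 0.0457) and rho = 0.573 (permutation p = 0.0570, adjusted p = 0.392). Without MI 1 and Sham 6 its r was 0.422, so the relation of Hdac2 with the dentate score rests largely on those libraries. MI 1 had the lowest score, -1.60, and Sham 6 the highest, 2.07.

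**Figure D4:**
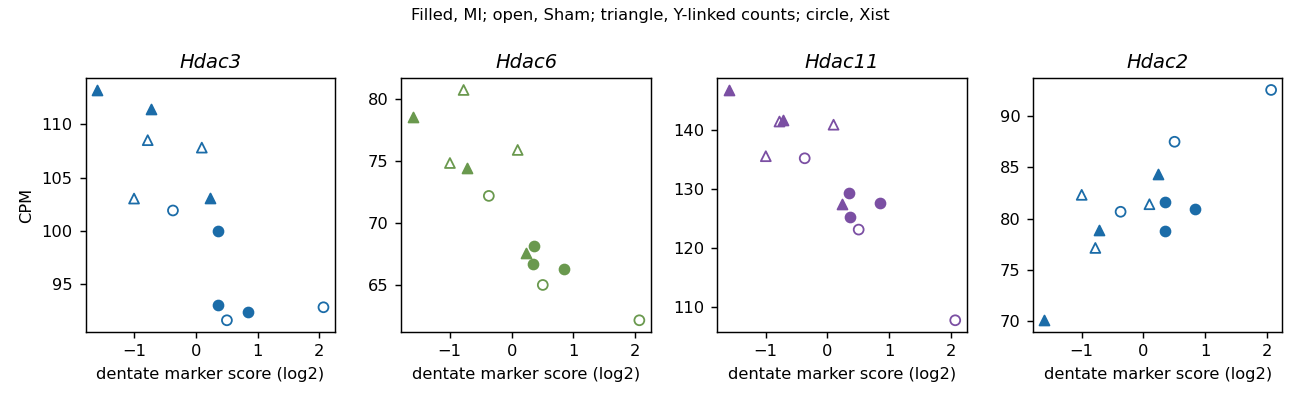
CPM of Hdac3, Hdac6, Hdac11 and Hdac2 in each library against the dentate granule marker score (mean centred log2 CPM of 10 markers); filled points are MI, open points Sham, triangles libraries with Y-linked counts and circles libraries with Xist. Hdac3, Hdac6 and Hdac11 are lower where the score is higher, and Hdac2 is higher, with Sham 6 at the far right (2.07) and MI 1 at the far left (-1.60).

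The other 4 relations concerned Hdac7, Hdac11 and Hdac6. Hdac7 was lower where CA1 pyramidal markers were higher, with r = -0.817 (permutation p = 0.00151, adjusted p = 0.0456) and rho = -0.853 (permutation p = 0.0008, adjusted p = 0.0290). Without Sham 1 and Sham 5 r was -0.780, and within the sets it was -0.798 and -0.944. Sham 1 had the lowest CA1 score, -1.02, and the highest Hdac7, and Sham 5 the highest score, 0.57, and the lowest Hdac7. With the CA1 score as a covariate, added after the data were seen, the log2 fold change of Hdac7 in MI minus Sham was 0.05 in place of -0.17. With the myelin score as a covariate it was -0.017, and with the meningeal score -0.048. Without Sham 5 the log2 fold change of Hdac7 was -0.28, and without Sham 1 it was -0.11. No fit used all of these scores at once. The myelin score was mostly higher in MI than in Sham, so that score and the group cannot be fully told apart.

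Hdac6 against the microglial score had r = -0.817 (permutation p = 0.00227, adjusted p = 0.0456) and rho = -0.783 (permutation p = 0.00394, adjusted p = 0.0788), and r = -0.681 without Sham 3 and Sham 6. Hdac11 had r = -0.766 (permutation p = 0.00228, adjusted p = 0.0456) and rho = -0.804 (permutation p = 0.00254, adjusted p = 0.0593), and r = -0.662 without them. Within the sets these values ran from -0.552 to -0.828. Hdac11 against the astrocyte score had r = -0.800 (permutation p = 0.00226, adjusted p = 0.0456) and rho = -0.692 (permutation p = 0.0153, adjusted p = 0.267), and r = -0.541 without MI 3 and Sham 6. Hdac1, Hdac4, Hdac5, Hdac8 and Hdac9 had no relation past the threshold with any of the 14 lists.

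**Figure D5:**
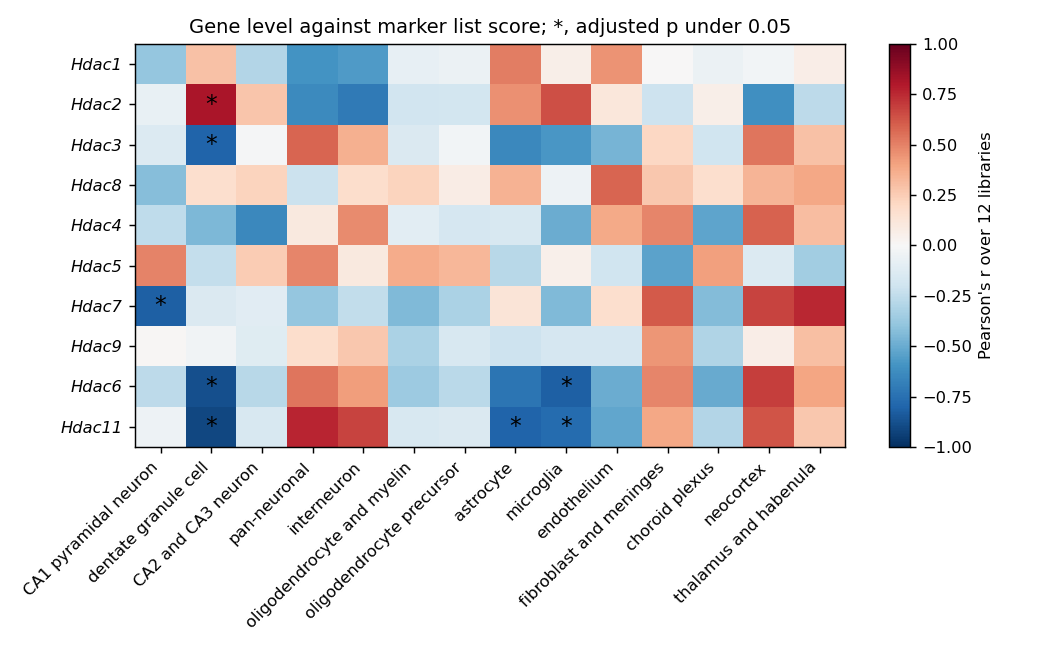
Pearson's r over 12 libraries between the log2 CPM of each gene (rows) and the score of each marker list (columns), from -1 (blue) to 1 (red), with a star where the permutation p adjusted over 140 relations is under 0.05. The stars stand in the dentate column for Hdac2, Hdac3, Hdac6 and Hdac11, in the CA1 column for Hdac7, in the microglial column for Hdac6 and Hdac11, and in the astrocyte column for Hdac11.

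The genes whose levels followed each member most closely were the pair with the highest r of log2 CPM, centred on the group means, over 12 libraries. They were picked as the highest of 16829 and so carry no test. For Hdac6 these were Sema4a (r = 0.975) and Meaf6 (r = 0.965), and 103 genes had r over 0.9. For Hdac11 they were Fkbp3 (r = 0.971) and Grhl3 (r = 0.970), with 174 genes over 0.9, the most of any member. Hdac2 had 52 such genes, led by Kntc1 and Anxa11 (r = 0.965 and r = 0.964), and Hdac3 had 31, led by Tecr (r = 0.944) and Acta2 (r = 0.931). Scaled by library totals alone, r with Hdac2 was 0.910 for Kntc1 and 0.906 for Anxa11. Grhl3 (mean 1.27 CPM) and Kntc1 (1.14 CPM) had low levels. How many genes over 0.9 a typical gene has is not given here.

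Hdac7 had 20 such genes, led by Gm43398 (r = 0.952) and Sfmbt2 (r = 0.937). Hdac1 was most like Trabd (r = 0.976) and Cep152 (r = 0.924), and Appbp2 (r = 0.932) was among the closest to Hdac4. Hdac1 and Hdac4 had 4 genes over 0.9 each. Hdac5 was most like Mapre3 (r = 0.916) and Pcbp2 (r = 0.899). Hdac8 and Hdac9 had 0 genes over 0.9. Their closest were Gm43375 (r = 0.895) and Mastl (r = 0.889) for Hdac8, and C130060C02Rik (r = 0.891) and Rrs1 (r = 0.872) for Hdac9. Mean levels were low for Gm43398 (0.950 CPM), Gm43375 (1.01 CPM), Mastl (1.30 CPM) and C130060C02Rik (0.542 CPM).

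The partners of the deacetylases were described through 79 genes in 10 lists, of which 77 were tested and Sinhcaf and Mef2b were not. None passed an adjusted p of 0.05 in MI against Sham in edgeR, where 0% of all genes did, and 2 had an unadjusted p under 0.05, against 7.55% of all genes. There were 32 log2 fold changes above 0 and 45 below, with a median of -0.03 beside -0.01 over all genes. Hdac10, the class IIb paralog of Hdac6, stood at 19.7 ± 1.16 CPM in MI and 19.2 ± 1.65 CPM in Sham (SD, n = 6), a log2 fold change of 0.04 (SE 0.06, adjusted p = 0.930, edgeR).

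In the complexes that hold Hdac1 and Hdac2, no subunit passed the test. NuRD, the chromatin remodelling complex, had 7 of 13 subunits above 0 and a median log2 fold change of 0.01. Its smallest p values were those of the histone chaperone Rbbp4 (log2 fold change -0.07, SE 0.04) and of Mbd3 (0.09, SE 0.05). SIN3 had 9 of 13 tested subunits below 0, with Sap18 at 0.11 and the scaffold Sin3b at -0.09. CoREST had 8 of 10 below 0 and a median of -0.05, with the demethylase Kdm1a at -0.06 and Phf21a at -0.06. The MiDAC complex had 2 of 3 below 0, with Elmsan1 at -0.14 (-0.011 without Sham 6) and Dnttip1 at -0.02.

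NCoR and SMRT, the corepressors that hold Hdac3, had 3 of 5 genes below 0 and a median of -0.05, with Gps2 at 0.05 and Tbl1xr1 at -0.05. Of the Hdac6 partners 4 of 7 were above 0, among them Cttn, an actin-binding substrate of Hdac6, at 0.09, while Plaa, a ubiquitin-binding protein, was at -0.03. None of these passed the test.

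The partners of class IIa enzymes held both genes with an unadjusted p under 0.05. Fold changes of tissue markers are given beside these genes, with no marker called by edgeR and no list tested. In MI minus Sham 16 of 16 myelin markers were above 0 (median log2 fold change 0.50), against 47.6% of all genes. Of the meningeal markers 0 of 10 were above 0 (median -0.83). Markers of 1 list may move together, so these counts are not independent observations. Of the dentate markers 0 of 10 were above 0 (median -0.46). The dentate score was highest in Sham 6, 2.07, and lowest in MI 1, -1.60. MI 6 came next to the highest, at 0.84, above every Sham library other than Sham 6. Whether the dentate markers stay below 0 without Sham 6 and MI 1 was not tested. The meningeal score was highest in Sham 1, 1.75, and Sham 2, 0.98. Mef2c, a transcription factor that class IIa enzymes repress, ran from 113 to 198 CPM in MI and from 107 to 641 CPM in Sham, with 641 CPM in Sham 1 and 443 CPM in Sham 2. Its log2 fold change was -0.98 (SE 0.37, adjusted p = 0.606, edgeR), and with the myelin score as a covariate the log2 fold change of Mef2c was 0.00076. Without Sham 1 it was -0.62, and -0.31 with the meningeal score. Sik3, a kinase of class IIa enzymes, ran from 202 to 220 CPM in MI and from 153 to 210 CPM in Sham. All 6 MI libraries were above the Sham median of Sik3, with a log2 fold change of 0.20 (SE 0.08, adjusted p = 0.597, edgeR). With the myelin score as a covariate the log2 fold change of Sik3 was 0.00025. The myelin score ran from 0.11 to 0.43 in MI and from -0.70 to 0.25 in Sham. That score and the group therefore cannot be fully told apart in these fits.

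Camk2d, another kinase, had a log2 fold change of -0.83 (SE 0.43, adjusted p = 0.690, edgeR), with 6 of 6 MI libraries below the Sham median and its highest levels in Sham 1 and Sham 2. It turned to 0.15 with the myelin score as a covariate, to 0.10 with the meningeal score and to 0.26 in the libraries with Xist alone. In those with Y-linked counts alone the log2 fold change of Camk2d was -1.50. Mef2d stood at -0.04. Over the class IIa kinases 7 of 15 were above 0, with a median of -0.03. The 14-3-3 genes had 3 of 7 above 0, with Ywhaq at 0.05 and Ywhab at -0.07.

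The authors' deposited tables list 8 of the 77 pathway genes, 10.4%, against 6.09% of all genes tested. All 8 stand in the table of genes lower in MI, which lists 2.97% of all genes. The difference in share was not tested. They are Chd4, Gatad2b and Rbbp7 of NuRD, Kdm1a, Zmym2 and Zmym3 of CoREST, Ncor1, and Ywhab. From the counts all 8 had a log2 fold change below 0, none had an unadjusted p under 0.05, and the smallest adjusted p was 0.743 in edgeR. The authors' tables hold values of the same 12 libraries, so the shared direction is no separate support.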

How the data were processed

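RNA was measured in 12 libraries, 6 MI and 6 Sham, as single-end reads from polyadenylated RNA, per the labels' protocols. The submitters' processing notes name FastQC 0.11.5, STAR 2.5.2b, featureCounts, Subread 1.5.1 and mm10, without order or settings. The authors deposited whole-number read counts per gene, not normalized. The authors also deposited log2 fold changes, log2 expression values and adjusted p-values in a pair of gene tables, used here only for which genes they list. Symbols were matched for 48349 of 48709 IDs.

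From the counts, edgeR 4.0.16 (R 4.3.3) was run with filterByExpr, TMM scaling and the robust quasi-likelihood F test, two-sided, with Benjamini-Hochberg adjustment over 16829 genes and a threshold of 0.05. The procedure was tested on simulated data. Log2 CPM used a prior count of 2. Correlations had 100000 permutations. Alternatives were DESeq2 1.42.0, limma-voom (limma 3.58.1), other scalings and filters, covariates, and leaving libraries out. No pair of libraries within a group was a duplicate. Named were the 10 members, the 2 genes of each pathway list with the smallest p, the 2 genes most like each member (1 of these is not reported here), and the pathway genes in the authors' tables. The members and lists were chosen with earlier results of these data known.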

Additional observations from a re-analysis of the deposited data

Results flagged for a closer look

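Hdac2 in MI 1 stood at 70.1 CPM, below the other 5 MI libraries, and its gap to the nearest of them was 0.631 of the range of the group, just above Dixon's critical value for 6 libraries. A library of 1 group stood apart by this measure for 10.2% of all genes tested. Chance alone flags about 1 in 20 groups.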

How the results depend on the processing

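Each member's MI minus Sham log2 fold change was recomputed under 28 alternatives. Of these 280 values 255 kept their direction, 25 did not and none passed the threshold; the smallest adjusted p was 0.235. Hdac1, Hdac2, Hdac5, Hdac8 and Hdac9 kept their direction in all 28. Whatever made the others turn was not tested. Leaving out 1 library at a time gave -0.14 to -0.036 for Hdac1, -0.10 to -0.049 for Hdac2, 0.013 to 0.086 for Hdac8, 0.058 to 0.096 for Hdac5, -0.28 to -0.11 for Hdac7, -0.14 to -0.062 for Hdac9, -0.21 to -0.011 for Elmsan1, -0.016 to 0.043 for Hdac3, -0.043 to 0.017 for Hdac4, -0.071 to 0.0044 for Hdac6, -0.026 to 0.049 for Hdac11, -0.00020 to 0.062 for Hdac10 and -0.049 to 0.0077 for Dnttip1.

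With limma-voom the values that turned were Hdac3 -0.038, Hdac11 -0.038, Mef2d 0.0023 and Ncor1 0.0095. With only the libraries with Xist they were Hdac3 -0.0026, Hdac4 0.076, Hdac6 0.015, Dnttip1 0.018, Camk2d 0.26, Plaa 0.023 and Cttn -0.11. With only those with Y-linked counts they were Hdac11 -0.011, Mef2d 0.025, Chd4 0.014 and Ncor1 0.0094. Without Sham 1 and Sham 6 they were Hdac3 -0.0043 and Hdac11 -0.023. With the myelin score as a covariate they were Hdac4 0.0058, Hdac6 0.057, Dnttip1 0.053, Mef2c 0.00076, Camk2d 0.15, Plaa 0.0015 and Cttn -0.014. With the meningeal score they were Hdac4 0.033, Hdac6 0.025, Camk2d 0.10 and Cttn -0.062. With the CA1 score, chosen after seeing the data as were all dentate and pan-neuronal covariates, they were Hdac4 0.012, Hdac7 0.049 and Cttn -0.077, and with the dentate score Hdac3 -6.3e-05. Between the sex-linked sets Hdac1 turned to -0.034 with the pan-neuronal score and Hdac2 to -0.030 with the dentate score.

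Over all genes, edgeR called 0 in MI against Sham (1270 at an unadjusted p under 0.05), DESeq2 16, limma-voom 0, and edgeR 211 within the libraries with Y-linked counts, none of them a member. Between the sets edgeR called 50, DESeq2 688, limma-voom 272, and edgeR 9 with the dentate and 10 with the pan-neuronal covariate. With the longest transcript as length the shares of class I, IIa and IIb were 33.0%, 33.7% and 7.36%.

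With the replicate number as a block edgeR called 0 genes and no member turned direction. Whether the numbers pair the libraries was left undecided. Same-numbered libraries correlated by 0.40, -0.35, 0.20, -0.32, -0.12 and 0.18, and numbers 1, 3 and 6 correlated best with their own number. For numbers 2 and 4 the MI and Sham libraries were of different sex-linked sets, and for numbers 1, 3, 5 and 6 of the same set. Number and set are therefore mixed, and neither the negative nor the positive values can decide the question. Hdac1 and Hdac8, with 205 to 423 counts per library, were measured with the least depth.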
